A study of Mus musculus with 8 samples.

Results

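The genes described here are 10 genes known for their rise in disease-associated microglia, the state that microglia take around amyloid plaques, dying neurons and damaged myelin. They are Apoe, Trem2, Tyrobp, Clec7a, Cst7, Lpl, Itgax, Spp1, Axl and Gpnmb. They were chosen by name from the literature on that state, with earlier results of these data known. They are 10 of the 55385 genes of the deposited table, and all 10 passed the filter on low counts, as did 17537 genes in all. The cells were primary cultured microglia from the neocortex and hippocampus of wild-type newborn mice. Brains were pooled in flasks, and the microglia were shaken off and replated before treatment. The 4 IgG-treated cultures received 10 µg/ml IgG for 24 h at DIV15 (15 days in vitro). The 4 control cultures are called untreated in the labels and were given PBS in the methods of the study. Both groups share the genotype, the medium with serum and the culture scheme, and a control and an IgG-treated library of the same number share a culture date, which makes 4 pairs of libraries. The study compared the groups to find which genes of microglia respond to IgG.

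TREM2 is a lipid-sensing receptor of microglia that signals through the adaptor TYROBP, and in mouse models the full disease-associated state depends on it. In that state microglia turn down their homeostatic genes and turn up genes for lipoprotein handling, phagocytosis, lysosomes and adhesion. IgG is bound by Fc receptors, of which the activating ones signal through the FcRγ chain, an adaptor of the same kind as TYROBP, and the kinase SYK, which lies downstream of TREM2 as well.

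In the main test used here no disease-associated gene met the criterion of the study, which 0.844% of all tested genes met. The criterion asks for p under 0.01 before adjustment and a log2 fold change beyond 0.5 in size. Of the 10 genes, 5 had a positive and 5 a negative log2 fold change, between -0.37 for Apoe and 0.43 for Clec7a. Their median log2 fold change was 0.02, against 0.00 for all tested genes. What set the genes apart from each other was their pattern over the 4 IgG-treated libraries. Apoe, Trem2 and Tyrobp were low in IgG-treated libraries 1 and 3 and high in library 4, Clec7a, Lpl and Axl were high in libraries 1 and 3, Cst7 was above its paired control in 4 of 4 pairs, and Itgax was below it in 4 of 4 pairs. Clec7a was also above it in 4 of 4 pairs, by 0.01 or less on the log2 scale in pairs 2 and 4. All tested genes included 10.4% that were higher and 8.47% that were lower in 4 of 4 pairs.

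The libraries held 21287816 to 23571277 counts in the control and 22000403 to 23703216 counts in the IgG-treated group, and 3 counts, the upper limit behind a value of 0, were 0.124 to 0.147 CPM (counts-per-million, with library sizes scaled by TMM). Counts of mitochondrial genes were 2.32% to 2.41% of the total in the 4 control libraries, 4.85% and 5.59% in IgG-treated libraries 1 and 3, and 2.21% and 1.97% in libraries 2 and 4. All 10 defining markers of microglia and macrophages were expressed, with a summed level of 5858 to 6279 CPM in control and 6091 to 7640 CPM in IgG-treated libraries. The summed levels of markers of other cells were 171 to 196 and 149 to 191 CPM for 8 astrocyte genes, 1328 to 1993 and 1166 to 1884 CPM for 10 genes of the oligodendrocyte lineage, 24.4 to 35.5 and 15.7 to 32.6 CPM for 7 neuron genes, and 6.62 to 9.29 and 8.65 to 12.8 CPM for 10 fibroblast and vascular genes, of which Cldn5 was at 0 in every library. In RNA of whole cultures, fewer cells of a type and less RNA per cell cannot be told apart.

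Levels of the 10 genes were compared with each other as RPKM, which divides CPM by the summed exon length in kilobases. In the control libraries Apoe had a mean of 11650 ± 710 RPKM (SD, n = 4) and ranked at place 4 of all tested genes, and Spp1, at 6342 ± 1054 RPKM, ranked at place 8. Tyrobp followed with 1509 ± 77.01 and Gpnmb with 1081 ± 97.9 RPKM, and then Lpl with 316 ± 16.2 RPKM. Clec7a (174 ± 25.1), Trem2 (167 ± 12.1) and Itgax (153 ± 15.3 RPKM) overlapped in their libraries and did not differ beyond their spread. The lowest levels were those of Axl (49.8 ± 7.17) and Cst7 (42.1 ± 8.49 RPKM), which overlapped as well, while all other neighbours in this order were separated in every control library. The IgG-treated means had the same order, but the libraries of Apoe (5487 to 13800 RPKM) and Spp1 (5766 to 7460 RPKM) now overlapped, and so did those of Tyrobp and Gpnmb and of Lpl and Clec7a. Between 1.09% and 2.92% of all counts of a library came from Apoe alone. The value of Spp1 is uncertain as that of a single gene, because Gm42793 overlaps it on the same strand and holds 408805 counts over the 8 libraries, against 1874337 for Spp1.

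The sequences before the gene starts are shown for Apoe and Trem2, which were low together in IgG-treated libraries 1 and 3, and for Clec7a and Axl, which were high together in them. They are the 250 bases before the start in RefSeq on GRCm38.p6, 5′ to 3′ on the strand of the gene, and 8 of the 10 genes had such a window. They lie at chr7:19699189-19699438 (Apoe, minus strand), chr17:48346151-48346400 (Trem2, plus strand), chr6:129472780-129473029 (Clec7a, minus strand) and chr7:25788734-25788983 (Axl, minus strand). Capitals mark the core GAGGAA of the binding motif of PU.1, the lineage factor of macrophages, on either strand, and in Trem2 also the AP-1 motif TGANTCA, which does not overlap it.
Apoe: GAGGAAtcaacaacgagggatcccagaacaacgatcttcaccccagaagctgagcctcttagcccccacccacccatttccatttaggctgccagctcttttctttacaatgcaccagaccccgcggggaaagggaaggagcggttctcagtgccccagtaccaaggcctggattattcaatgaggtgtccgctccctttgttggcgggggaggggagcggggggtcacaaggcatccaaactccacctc
Trem2: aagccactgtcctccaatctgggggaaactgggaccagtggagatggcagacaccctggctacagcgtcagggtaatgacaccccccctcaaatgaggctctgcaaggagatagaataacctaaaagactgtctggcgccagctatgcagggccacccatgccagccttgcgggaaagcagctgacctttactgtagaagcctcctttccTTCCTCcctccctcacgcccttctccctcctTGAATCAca
Clec7a: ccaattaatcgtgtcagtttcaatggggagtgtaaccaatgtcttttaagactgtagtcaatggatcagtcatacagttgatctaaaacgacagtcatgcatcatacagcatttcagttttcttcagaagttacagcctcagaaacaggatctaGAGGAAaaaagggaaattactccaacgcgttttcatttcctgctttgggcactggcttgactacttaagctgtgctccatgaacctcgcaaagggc
Axl: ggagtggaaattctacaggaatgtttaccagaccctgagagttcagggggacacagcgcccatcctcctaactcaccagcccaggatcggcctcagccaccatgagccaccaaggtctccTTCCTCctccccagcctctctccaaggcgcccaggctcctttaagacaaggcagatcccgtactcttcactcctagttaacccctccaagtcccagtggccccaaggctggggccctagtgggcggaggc
These 4 windows and that of Spp1 hold the PU.1 core in 1 place, those of Cst7, Itgax and Gpnmb do not, so that 5 of 8 hold it, and 23.1% of the 27025 mouse promoter windows of this length hold it. The AP-1 letters of the Trem2 window are also in that of Itgax, and occur in 6.87% of all windows. The letters GAAA, any 2 bases and GAAA again of an interferon-stimulated response element, found in 3.04% of all windows, are in the window of Spp1 and in no other of the 8. The E-box letters CACGTG of MITF and TFE factors, found in 6.05%, are in none of the 8. The GC content was 57.2%, 56% and 60% for Apoe, Trem2 and Axl and 42% for Clec7a, against a median of 52% over all windows. A match of these letters is a description and no evidence of binding.

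Apoe and Lpl handle lipoproteins. Apoe (ENSMUSG00000002985, chr7:19696109-19699188 on mm10), the main lipid carrier of the brain, had 25735, 24690, 26337 and 22872 CPM in control libraries 1 to 4 and 12340, 23723, 11730 and 29505 CPM in IgG-treated libraries 1 to 4. IgG-treated libraries 1 and 3 lay far below every control, library 2 lay among the controls and library 4 above them all. The group means were 24908 ± 1519 and 19325 ± 8745 CPM (SD, n = 4), a log2 fold change of -0.37 (SE 0.284, 95% interval -0.9998 to 0.27) with an adjusted p of 0.739 in the edgeR quasi-likelihood test (Benjamini-Hochberg over all tested genes). Without IgG-treated library 4 the log2 fold change of Apoe was -0.64 (SE 0.240, adjusted p = 0.174 in the same edgeR test), and it was -0.20 without library 1 and -0.19 without library 3. Lpl (ENSMUSG00000015568, chr8:68880491-68907448), which frees fatty acids from lipoproteins, showed the opposite order, with 3305, 3201, 3550 and 3181 CPM in the controls and 5031, 3141, 5017 and 2586 CPM in the IgG-treated libraries. Its IgG-treated libraries 1 and 3 were above every control and libraries 2 and 4 below every control. The log2 fold change of Lpl was 0.25 (SE 0.209, 95% interval -0.21 to 0.72) with an adjusted p of 0.750 in edgeR's test. The ratio of Apoe to Lpl in CPM, taken within a library, was 7.19 to 7.79 in the controls and 2.45, 7.55, 2.34 and 11.4 in IgG-treated libraries 1 to 4.

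**Figure D1:**
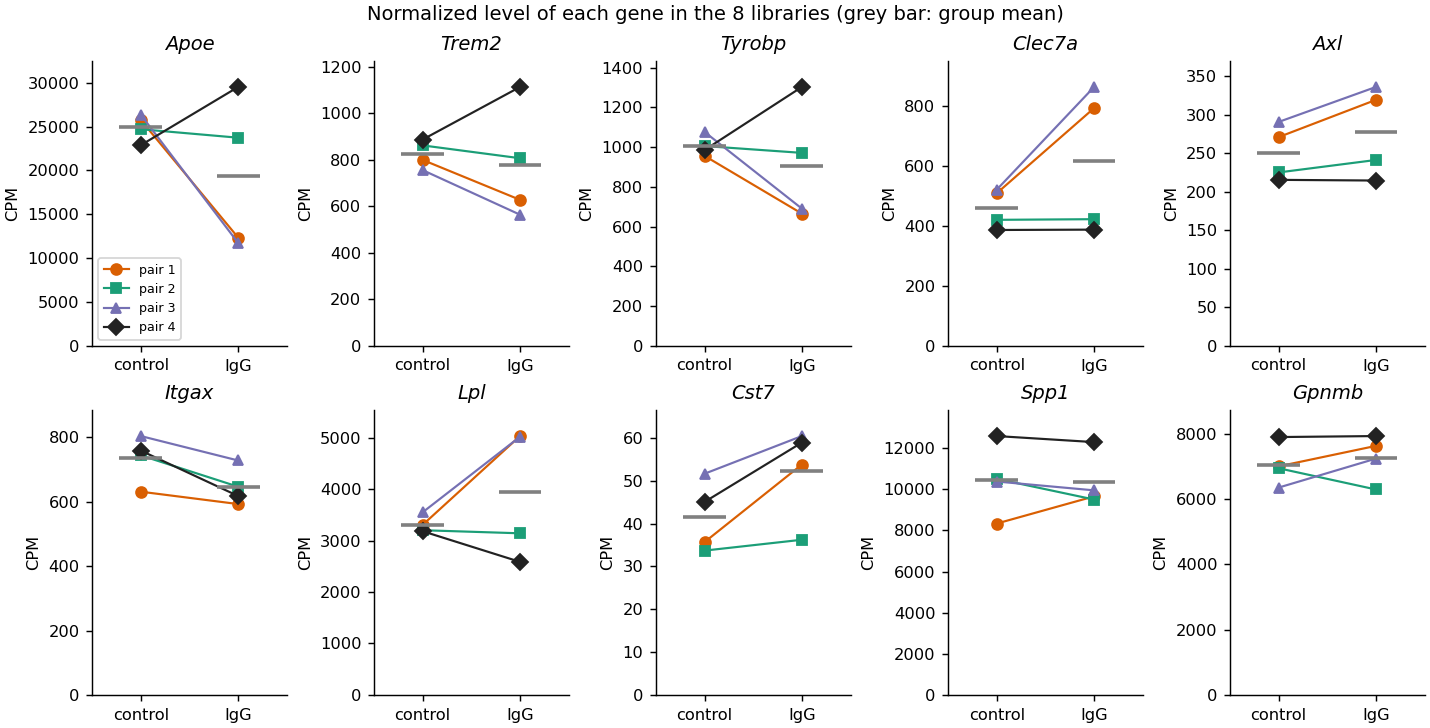
Level of each of the 10 genes in CPM (vertical axes, starting at 0) in the 4 control and 4 IgG-treated libraries. Lines join libraries of the same culture date and grey bars are group means, and Apoe goes from 25735 to 12340 and from 26337 to 11730 CPM in pairs 1 and 3 but from 22872 to 29505 CPM in pair 4.

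Trem2, Tyrobp, Clec7a and Axl encode cell surface receptors and an adaptor. Trem2 (ENSMUSG00000023992, chr17:48346401-48354147) had 799, 862, 755 and 887 CPM in the controls and 628, 806, 564 and 1113 CPM in the IgG-treated libraries. Tyrobp (ENSMUSG00000030579, chr7:30413760-30417585), which encodes the adaptor of TREM2, had 956, 1006, 1077 and 986 CPM in the controls and 666, 971, 691 and 1303 CPM in the IgG-treated libraries. Both genes followed the order of Apoe, low in IgG-treated libraries 1 and 3 and highest of all in library 4. Their log2 fold changes were -0.09 (SE 0.192) for Trem2 and -0.15 (SE 0.197) for Tyrobp, with adjusted p-values of 0.901 and 0.833 in edgeR's test. The ratio of Tyrobp to Trem2 in RPKM stayed between 7.87 and 10.6 in the 8 libraries, so that receptor and adaptor kept similar proportions in the libraries where both were low. Clec7a (ENSMUSG00000079293, chr6:129461591-129472779), which encodes Dectin-1, a receptor for fungal beta-glucan, had 509, 421, 521 and 387 CPM in the controls and 793, 423, 864 and 388 CPM in the IgG-treated libraries. Libraries 1 and 3 were high again and the others were at the level of their paired controls. The log2 fold change of Clec7a was 0.43 (SE 0.255, 95% interval -0.14 to 0.99) with an adjusted p of 0.704 in edgeR's test. Axl (ENSMUSG00000002602, chr7:25757273-25788705), a TAM receptor kinase for apoptotic cells, had 271, 225, 291 and 215 CPM in the controls and 319, 241, 336 and 215 CPM in the IgG-treated libraries, a log2 fold change of 0.15 (SE 0.161, adjusted p = 0.797 in edgeR's test). The high Axl libraries were those of Clec7a, in the controls as well as with IgG. GENCODE gives Clec7a the biotype of a polymorphic pseudogene, although it had counts in every library.

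Itgax and Cst7 had the same direction in every pair, as had Clec7a with changes close to 0 in pairs 2 and 4. Itgax (ENSMUSG00000030789, chr7:128129547-128150657), the integrin alpha chain CD11c, had 631, 744, 804 and 758 CPM in the controls and 593, 646, 728 and 618 CPM in the IgG-treated libraries. Each IgG-treated library was below its own control, by log2 changes of -0.09, -0.20, -0.14 and -0.30, but the groups overlapped. The log2 fold change of Itgax was -0.18 (SE 0.107, 95% interval -0.42 to 0.05) with an adjusted p of 0.703 in edgeR's test. Cst7 (ENSMUSG00000068129, chr2:150570415-150578944), which encodes cystatin F, an inhibitor of lysosomal cathepsins, had 35.7, 33.7, 51.6 and 45.0 CPM in the controls and 53.8, 36.2, 60.4 and 58.9 CPM in the IgG-treated libraries. Each IgG-treated library was above its own control, by log2 changes of 0.59, 0.10, 0.23 and 0.39, and again the groups overlapped. The log2 fold change of Cst7 was 0.33 (SE 0.183, 95% interval -0.07 to 0.74) with an adjusted p of 0.693 in edgeR's test. Of all tested genes 10.4% were higher in 4 of 4 pairs and 8.47% were lower in 4 of 4 pairs, and of the 10 genes Cst7 and Clec7a were in the first class and Itgax in the second.

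Spp1 and Gpnmb are genes of glycoproteins of activated and lipid-laden macrophages, and both differed little between the groups. Spp1 (ENSMUSG00000029304, chr5:104435118-104441050), which encodes osteopontin, had 8335, 10507, 10379 and 12589 CPM in the controls and 9655, 9503, 9949 and 12295 CPM in the IgG-treated libraries. Replicate 4 had the highest Spp1 level of both groups. Its log2 fold change was -0.01 with a 95% interval of -0.36 to 0.33 (adjusted p = 0.982 in edgeR's test). Gpnmb (ENSMUSG00000029816, chr6:49036546-49070929) had 6996, 6938, 6346 and 7893 CPM in the controls and 7622, 6288, 7233 and 7923 CPM in the IgG-treated libraries. Its groups overlapped almost fully, and the log2 fold change was 0.05 with a 95% interval of -0.23 to 0.32 (adjusted p = 0.921 in edgeR's test). For Spp1 and Gpnmb, as for Itgax, the whole interval lay within a log2 fold change of 0.5 in either direction.

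Counted over the 10 genes, edgeR's quasi-likelihood test with the group as its only term called 0 by the criterion of the study, where it called 0.844% of all tested genes. It called 0 at an adjusted p-value under 0.05, which 0.0% of all tested genes passed, and 0 at an unadjusted p-value under 0.05, which 7.01% passed. The lowest unadjusted p-value was that of Cst7, at 0.0978. DESeq2 called 0 of the 10 genes by each of these rules as well, where it called 1.24%, 0.302% and 7.82% of all tested genes. The control and IgG-treated libraries were separated without overlap for 0 of the 10 genes and for 4.17% of all tested genes. With the replicate number as a block, which compares libraries within a culture date, 0 of the 10 genes met the criterion (1.82% of all tested genes did) and 0 passed at an adjusted p-value under 0.05 (0.393% of all tested genes did). Cst7 (log2 fold change 0.33, 95% interval 0.09 to 0.57, adjusted p = 0.377 in edgeR's blocked test) and Clec7a (0.35, 95% interval 0.01 to 0.68, adjusted p = 0.486) were the 2 genes with an unadjusted p-value under 0.05, both higher with IgG. Of all tested genes 10.2% passed that limit, and 6.35% passed it and were higher with IgG. Over the alternatives the adjusted p-value ran from 0.177 to 1.00 for Cst7 and from 0.143 to 1.00 for Clec7a.

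**Figure D2:**
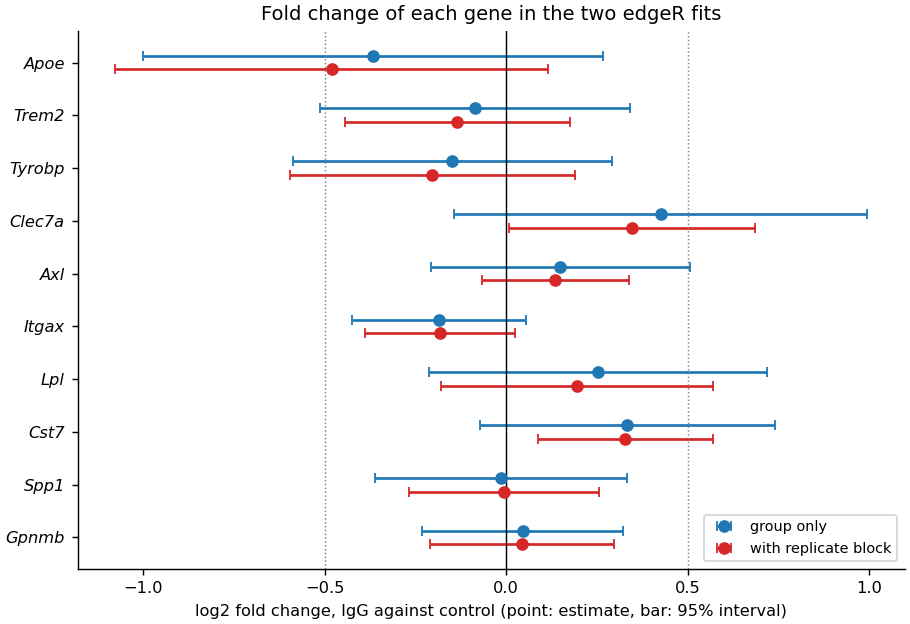
Log2 fold change of each of the 10 genes, IgG-treated against control (horizontal axis; dotted lines at -0.5 and 0.5), as points with 95% intervals, from the edgeR fit with the group only (blue) and with the replicate block (red). All intervals of the first fit hold 0, and those of Cst7 (0.09 to 0.57) and Clec7a (0.01 to 0.68) lie above 0 in the second.

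The spread of these genes was wider with IgG than in the controls. Their median coefficient of variation was 9.53% over the control and 26.4% over the IgG-treated libraries, and it was larger with IgG for 8 of the 10 genes. It went from 6.10% to 45.3% for Apoe, from 14.4% to 40.0% for Clec7a and from 5.12% to 32.1% for Lpl. For Itgax it was 10.0% and 9.10%, and for Spp1 16.6% and 12.7%, so that these genes did not share in it. The widening was not particular to the 10 genes. Over the 9885 tested genes with a mean of at least 10 CPM the median coefficient of variation was 5.72% and 14.8%, and it was larger with IgG for 86.4% of them. The 10 genes together made up 47573 to 50111 CPM in the controls and 37701, 45780, 37173 and 56004 CPM in IgG-treated libraries 1 to 4. Without Apoe the sum was 21838 to 26940 CPM in the controls and 22056 to 26499 CPM with IgG.

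Within the pairs the 10 genes had log2 changes of opposite sign. In pairs 1 and 3 the log2 changes were -1.06 and -1.17 for Apoe, -0.52 and -0.64 for Tyrobp and -0.35 and -0.42 for Trem2, against 0.64 and 0.73 for Clec7a, 0.61 and 0.50 for Lpl and 0.24 and 0.21 for Axl. In pair 4 Apoe, Trem2 and Tyrobp were higher with IgG by 0.37, 0.33 and 0.40, Lpl was lower by a log2 change of -0.30, and Clec7a and Axl were at 0.00 and -0.01. In pair 2 all 10 genes lay between -0.20 and 0.10. The correlation over the 8 libraries was 0.95 between Apoe and Tyrobp, 0.92 between Trem2 and Tyrobp, 0.96 between Clec7a and Lpl and 0.96 between Clec7a and Axl, and it was -0.96 between Trem2 and Lpl and -0.95 between Apoe and Lpl. These are descriptions over n = 8 libraries that share culture dates and scaling factors.

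**Figure D3:**
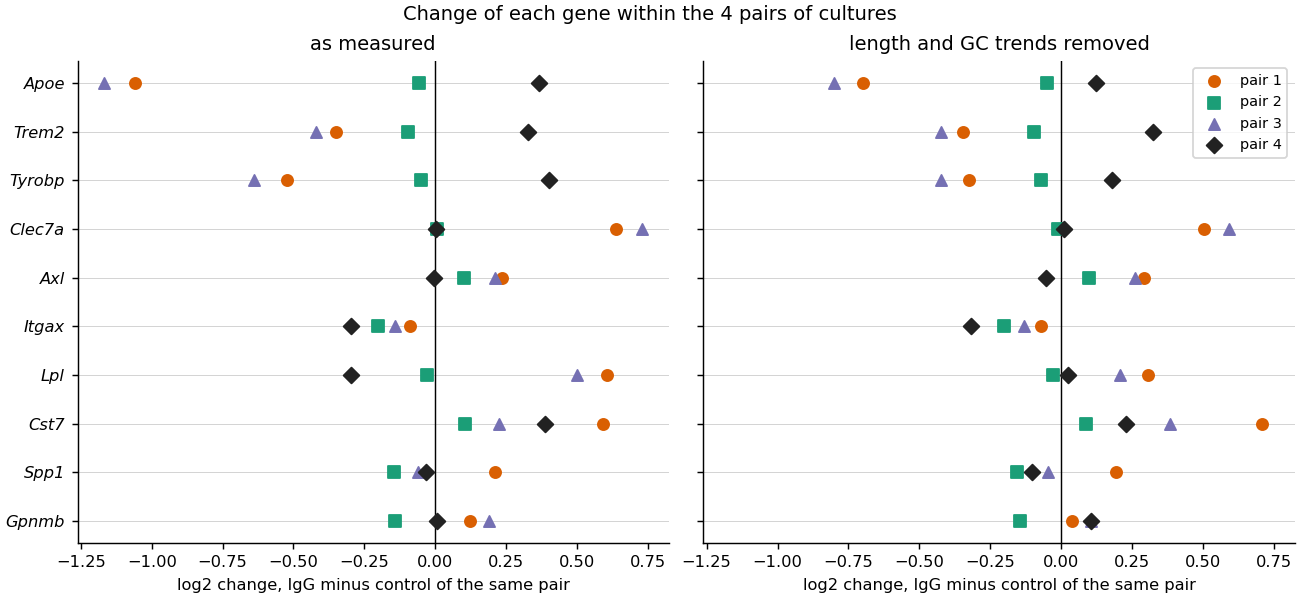
Log2 change of each of the 10 genes from the control to the IgG-treated library of the same culture date (horizontal axis), with 1 symbol per pair, as measured (left) and with the trends on exon length and GC content removed (right). On the left Apoe, Trem2 and Tyrobp of pairs 1 and 3 lie opposite to Clec7a, Lpl and Axl, and Cst7 lies above and Itgax below 0 in all 4 pairs on both sides.

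The same libraries differed in properties of transcripts over all genes. Over 15639 genes the change within a pair had a Spearman correlation with GC content of -0.42 in pair 1, -0.03 in pair 2, -0.42 in pair 3 and 0.34 in pair 4, and with exon length of 0.22, -0.03, 0.23 and -0.41. Genes of a library are not independent points. Apoe, at 59.5% GC and an exon length of 2138 bases, and Tyrobp, at 54.8% and 667 bases, were GC-rich and short against medians of 49.8% and 3899 bases over genes. Lpl, at 43.5% GC and 10478 bases, lay on the other side in both properties, and Clec7a, at 40.6% and 2638 bases, in GC content but not in length. Axl, which had the sign of Clec7a and Lpl in pairs 1 and 3, was at 54.2% GC and 5033 bases, close to Tyrobp in GC content. Trem2, at 51.0% and 4946 bases, lay near the middle in GC content. With the trends on exon length and GC content removed, the changes of Apoe in pairs 1 to 4 were -0.70, -0.05, -0.80 and 0.12, and their range over the pairs went from 1.53 to 0.93. For Lpl that range went from 0.90 to 0.33 and for Tyrobp from 1.04 to 0.60, while it was 0.75 before and after for Trem2 and went from 0.72 to 0.60 for Clec7a. It became wider for Axl (0.24 to 0.35), Cst7 (0.49 to 0.62) and Itgax (0.21 to 0.25). Cst7 stayed higher in 4 of 4 pairs (0.71, 0.09, 0.39 and 0.23) and Itgax lower in 4 of 4 (-0.07, -0.20, -0.13 and -0.32). Clec7a was now higher in 3 of 4 pairs, with -0.01 in pair 2. In the edgeR fit with the trends removed and the block, 0 of the 10 genes met the criterion, and Cst7 (log2 fold change 0.35, adjusted p = 0.207), Clec7a (0.27, adjusted p = 0.343) and Itgax (-0.18, adjusted p = 0.352) had an unadjusted p-value under 0.05, as did 14.1% of all tested genes. With the trends removed and no block, 0 of the 10 genes had an unadjusted p-value under 0.05, beside 1542 of all tested genes. The share of mitochondrial counts was high in the libraries where Apoe was low, and its part in these values was not tested.

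**Figure D4:**
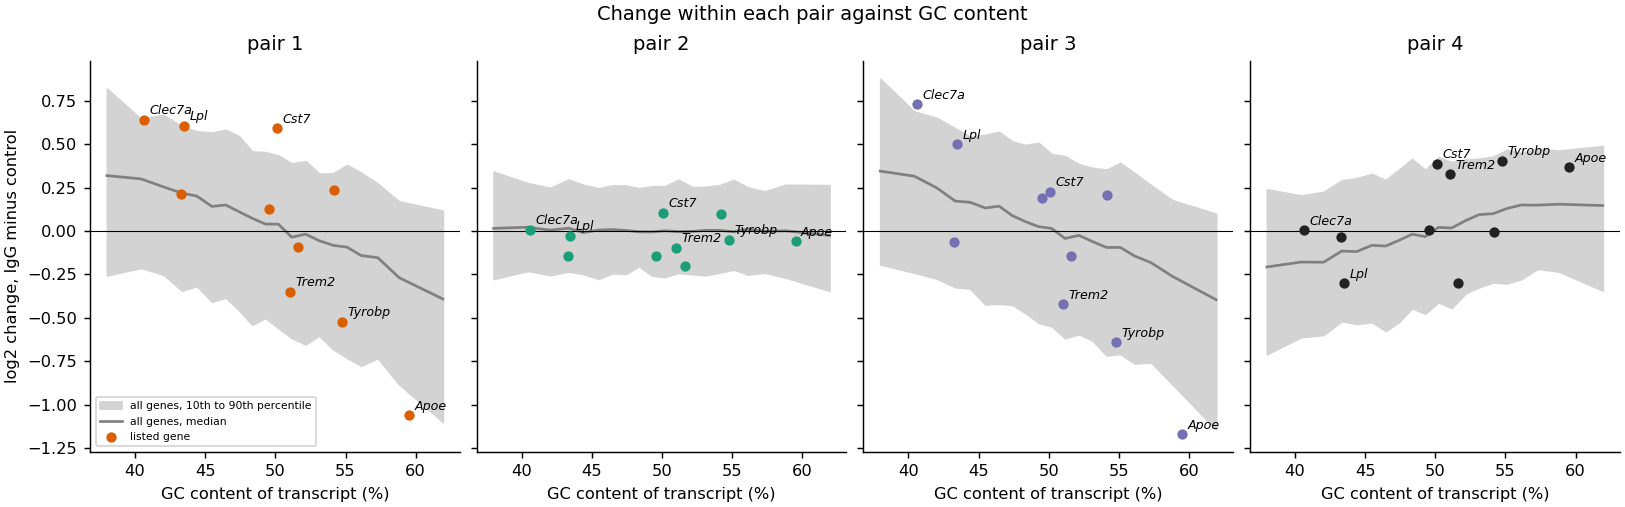
Log2 change from control to IgG-treated library of the same pair (vertical axis) against the GC content of the transcript (horizontal axis), with a panel for each of the 4 pairs, for the 10 genes (points) and for all genes in bins of GC content (line, median; band, 10th to 90th percentile). Apoe, at 59.5% GC, lies at -1.06 in pair 1 and -1.17 in pair 3, where the median falls with GC content, and at 0.37 in pair 4, where it rises.

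The values of Apoe, Trem2, Tyrobp, Clec7a and Lpl depended on libraries 1, 3 and 4 of the IgG-treated group. Itgax ranged only from -0.28 to -0.14 over all alternatives. Cst7 was at 0.48 without IgG-treated library 2, 0.46 without control library 3 and 0.39 without replicate 2. In these 3 fits Cst7 had an unadjusted p-value under 0.05 in edgeR's test, as had 2218, 845 and 1261 of all tested genes. Without library 1 or 3 the log2 fold change was -0.20 or -0.19 for Apoe, 0.28 or 0.22 for Clec7a and 0.12 in both cases for Lpl. With the block, Clec7a was no longer under an unadjusted p-value of 0.05 without replicate 1 or 3 (log2 fold changes 0.25 and 0.22). Nor was Cst7 without replicate 1 (log2 fold change 0.24). Without library 4, an unadjusted p-value under 0.05 in edgeR's test was reached by 5 of the 10 genes, with log2 fold changes of -0.64 for Apoe, -0.31 for Trem2, -0.37 for Tyrobp, 0.59 for Clec7a and 0.41 for Lpl, as did 23.2% of all tested genes. Their adjusted p-values lay between 0.169 and 0.190. With the block and without both libraries of replicate 4 they were 6 of the 10 genes, Cst7 included, beside 23.4% of all tested genes, and Apoe met the criterion, as did 4.34% of all tested genes (log2 fold change -0.78, SE 0.223, adjusted p = 0.132 in edgeR's test).

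Around the 10 genes 10 lists of related genes were read, with 145 tested genes in all. By the criterion of the study 4 of them rose and 1 fell with the group as the only term, which is 3.45%, against 0.844% of all tested genes. With the replicate block 6 rose and 1 fell, which is 4.83%, against 1.82% of all tested genes. At an adjusted p-value under 0.05 edgeR called 0 without and 2 with the block, beside 0.0% and 0.393% of all tested genes. Groups without overlap were found for 4.17% of all tested genes. Higher in 4 of 4 pairs were 10.4% of all tested genes and lower in 4 of 4 pairs 8.47%. The further genes raised in disease-associated microglia had a median of 0.02 on the log2 scale over 39 tested genes, 21 higher and 18 lower, like the 10 genes themselves. Fth1, the ferritin heavy chain that stores iron, was the gene of this list that met the criterion in both fits, at 5486 ± 430 CPM in the controls and 8339 ± 1590 CPM with IgG (log2 fold change 0.60, SE 0.157, adjusted p = 0.669 in edgeR's test). Lgals3bp, which encodes a secreted galectin-binding glycoprotein, rose with the block, by 0.68 (SE 0.0960, adjusted p = 0.0331), and was higher in 4 of 4 pairs by 0.76, 0.48, 0.77 and 0.72. Csf1, a growth factor of macrophages, was lowest of the list, at -0.35 (adjusted p = 0.723 without and 0.344 with the block in edgeR's test). Its changes in pairs 1 to 4 were -0.67, -0.19, -0.57 and -0.15. With the block 4 higher and 6 lower genes of the list reached an unadjusted p-value under 0.05, as did 10.2% of all tested genes.

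The homeostatic genes, which fall when microglia enter the disease-associated state in vivo, had a median of 0.08 on the log2 scale over 20 tested genes of 23, 13 higher and 7 lower. With library totals alone in place of TMM they were 10 higher and 10 lower. Fcrls, an Fc receptor-like gene of microglia, rose by 0.83 (SE 0.201, adjusted p = 0.634 in edgeR's test without and 0.0329 with the block), and its changes in pairs 1 to 4 were 1.16, 0.83, 0.78 and 0.53. Tmem119, at the low level of 5.09 ± 0.512 CPM in the controls, was at 7.39 ± 1.17 CPM with IgG without overlap between the groups and met the criterion without the block (log2 fold change 0.54, SE 0.151) but not with it (0.53, SE 0.167). Cst3, the cystatin C gene, had the lowest log2 fold change, at -0.29. Over the 8 libraries Cst3 was also the gene most like Apoe, at a correlation of 0.997.

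The signaling list around TREM2, TYROBP and Dectin-1 had a median of 0.12 over 21 tested genes, 16 higher and 5 lower, and 11 higher and 10 lower with library totals alone. No gene of it met the criterion with the group only. There 5 higher genes and 1 lower gene reached an unadjusted p-value under 0.05, as did 7.01% of all tested genes. With the block Ms4a6d, of the Ms4a family linked to soluble TREM2, rose by 0.67 (SE 0.122, adjusted p = 0.0766) and Pik3ap1, an adaptor of phosphoinositide 3-kinase, rose by 0.52 (SE 0.126, adjusted p = 0.210). Malt1, a part of the CARD9 signaling complex, was lowest, at -0.45 (SE 0.166, adjusted p = 0.692 in edgeR's test). With the block Malt1 was at -0.43 (SE 0.0989, adjusted p = 0.176 in edgeR's test), and its changes in pairs 1 to 4 were -0.29, -0.42, -0.33 and -0.69. In that fit 7 higher genes and 1 lower gene of the list reached an unadjusted p-value under 0.05, as did 10.2% of all tested genes. The direct partners had log2 fold changes of 0.12 for the kinase gene Syk, 0.18 for Plcg2, -0.13 for Card9 and -0.06 for Hcst, the adaptor DAP10, and none of them passed. Of the other Trem receptors Treml1 (-0.41) and Treml2 (0.09) were tested and did not pass (median -0.16), and Trem1, Trem3 and Treml4 had too few counts.

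Among apolipoproteins, lipoprotein receptors and lipid efflux genes, 20 were tested with a median of 0.02, and 0 met the criterion. Abcg1, a cholesterol exporter, was higher in 4 of 4 pairs by 0.68, 0.16, 0.89 and 0.12 (log2 fold change 0.51, SE 0.190, adjusted p = 0.692 in edgeR's test). Apoc1, which lies beside Apoe, was at -1.59, 0.05, -1.68 and 0.38 in pairs 1 to 4 and Apoc2 at -0.96, 0.10, -0.95 and 0.32, the order seen for Apoe. The efflux gene Abca1 (0.21) and the receptor gene Lrp1 (-0.05) did not pass, and Apoc3 was at 0 in every library. Of the partners of LPL, Angptl4, which inactivates the enzyme, fell from 5.22 ± 0.621 to 3.39 ± 0.292 CPM without overlap between the groups, by a log2 fold change of -0.62 (SE 0.149, adjusted p = 0.623 without and 0.227 with the block in edgeR's test), and met the criterion in both fits. Its changes in pairs 1 to 4 were -0.86, -0.55, -0.59 and -0.44, while those of Lpl were 0.61, -0.03, 0.50 and -0.30. Lmf1, the maturation factor of LPL, had a log2 fold change of 0.07, which was also the median of the 7 tested genes, and Gpihbp1 and Angptl8 had too few counts to be tested.

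The other TAM receptors and their ligands had log2 fold changes of 0.09 for Mertk, -0.20 for Tyro3, 0.05 for the ligand gene Gas6 and 0.03 for Pros1, with a median of 0.04, and 0 of 4 passed. Of 12 integrin partners and osteopontin receptors, with a median of 0.06, Itga9, an alpha chain that binds osteopontin, rose from 28.2 ± 1.30 to 42.0 ± 9.71 CPM without overlap between the groups (log2 fold change 0.57, SE 0.151, adjusted p = 0.675 in edgeR's test) and met the criterion in both fits. Itgb3 was at -0.34 (SE 0.126), lower in 4 of 4 pairs. The beta chain gene Itgb2, whose product pairs with CD11c, was at -0.08 and lower in 4 of 4 pairs by at most 0.17 on the log2 scale, Itgam was at 0.14 and the osteopontin receptor gene Cd44 at 0.16. Among 13 cystatins and the proteases they block, with a median of 0.12, 0 met the criterion, and Ctsc, the cathepsin that activates other proteases and a known target of cystatin F, was higher in 4 of 4 pairs by 0.59, 0.43, 0.48 and 0.33 (log2 fold change 0.47, SE 0.182, adjusted p = 0.692 without and 0.110 with the block in edgeR's test). Lgmn, the asparaginyl protease, was at 0.23 (SE 0.106), and Ctsl was at -0.01. Of 11 transcription factors linked to the state 0 passed, with a median of 0.02, Mitf at -0.02, Tfec at 0.06, and values from -0.26 for Cebpb to 0.13 for Runx1.

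**Figure D5:**
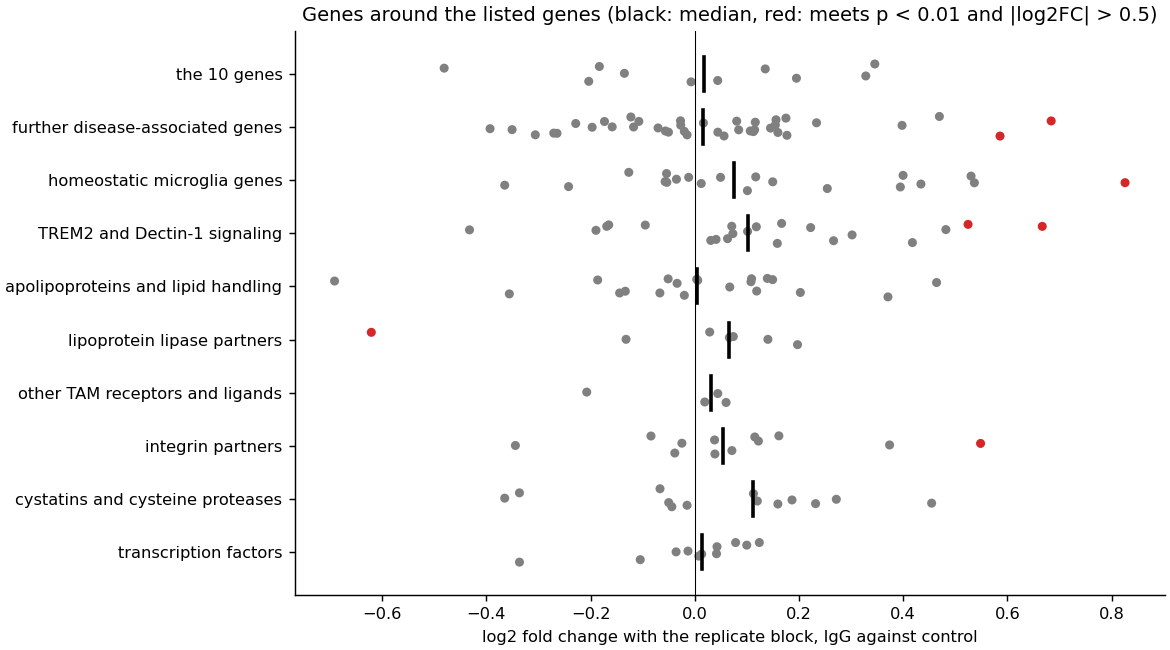
Log2 fold change with the replicate block (horizontal axis) of the 10 genes and the tested genes of the lists around them, with 1 point per gene and a black bar at the median of the list. The list of other Trem receptors, with Treml1 and Treml2, is not shown. Red points meet the criterion of the study in this fit, 0 of them among the 10 genes, and the median of the 10 genes lies at 0.02.

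Markers of neighbouring cell types that express some of these genes were read beside them. Border-associated macrophages also express Apoe, Axl and Clec7a, and 6 of their 8 markers were tested with a median of 0.42, 5 higher and 1 lower, and a summed level of 449 to 692 CPM in the controls and 581 to 1168 CPM with IgG. Ms4a7 of that list rose by 0.60 and met the criterion in both fits (adjusted p = 0.511 without and 0.0381 with the block in edgeR's test). Siglec1 and Cbr2 met the criterion with the block. The level of Cbr2 was low, at 0.592 CPM in the controls and 1.31 CPM with IgG. F13a1 was at -0.28, and Lyve1 and Cd163 had too few counts to be tested. Dendritic cells express Itgax, and 3 of their 8 markers were tested, with a summed level of 6.51 to 9.38 CPM in the controls and 5.20 to 9.48 CPM with IgG, and Cd209a at 0 in every library. Their median was -0.18, from -0.31 for Batf3 to 0.98 for Xcr1 (SE 0.352, adjusted p = 0.692 in edgeR's test). Of the 10 markers of microglia and macrophages 10 had a positive log2 fold change (9 with library totals alone) with a median of 0.22, and Fcgr3 was lowest at 0.02. Aif1 rose by 0.67 and met the criterion in both fits (adjusted p = 0.615 without and 0.0331 with the block in edgeR's test). Tmem119, also in this list, met it without the block only. The medians were -0.13 for the astrocyte genes (Gja1 -0.23 to Aldh1l1 0.22), -0.11 for the oligodendrocyte lineage (Olig2 -0.44 to Cnp 0.10), -0.18 for the neuron genes (Snap25 -0.71 to Syt1 0.12) and 0.07 for the fibroblast and vascular genes (Col3a1 -0.03 to Cdh5 0.97). No gene of the astrocyte, oligodendrocyte, neuron or fibroblast and vascular lists met the criterion without the block. Of these, Cdh5, at 0.89 ± 0.49 CPM in the controls, met it with the block. The part of these shifts in the values of the 10 genes was not tested.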

How the data were processed

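RNA sequencing of 8 primary microglial cultures was analysed, 4 control and 4 IgG-treated, with groups and replicate numbers from the sample labels. The table deposited by the authors holds counts, whole numbers for each Ensembl gene, with no normalization. The authors removed reads with adapters, undetermined or low-quality bases and aligned the rest to mm10 (GRCm38). The submitters' processing notes name HISAT2 2.2.1, SAMtools 1.12, Picard 2.26.3, featureCounts, R 4.1.2 and edgeR 3.36.0. The annotation, the use of strand and the handling of reads with several alignments are not given in the sources used here, so overlapping, antisense and near-identical genes are uncertain. The methods state a poly(A) selection and a removal of ribosomal RNA.

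Gene symbols, positions, exon lengths and GC contents were taken from GENCODE M21, which holds 55144 of the 55385 identifiers. Counts were scaled with TMM, filtered with filterByExpr (17537 genes) and fitted with edgeR 4.0.16 (quasi-likelihood, R 4.3.3) on the group alone, with Benjamini-Hochberg adjustment over all tested genes. CPM divide counts by the scaled library size, and RPKM divide CPM by exon length in kilobases. The cutoffs of the criterion (p under 0.01 before adjustment, log2 fold change beyond 0.5 in size) are those of the study. The study applied them to p-values of its own calculation, so its calls need not match the 148 genes called here. Changes within pairs are differences of log2 CPM with a prior count of 2. Trends on exon length and GC content were fitted over genes of at least 1 CPM by lowess (span 0.3). Alternatives were the replicate block, likelihood ratio tests, DESeq2 1.42.0, DESeq2 size factors, library totals alone, other filters on low counts, trend removal and leaving out libraries. Intervals and floors cover the spread between libraries or counting error only.

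The 10 genes and all lists were chosen with earlier results of these data known. Named were the 10 genes, the genes of each list that met the criterion, its highest and lowest gene, direct partners of the 10 proteins, and for each of the 10 genes the 3 genes with the highest correlation over the libraries. Changes within pairs with the trends removed, and the fit with the trends removed and no block, were added after seeing the data. Some genes that the rule names are not reported here.

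Same-numbered libraries share a date in the labels and so are paired. Their deviations from the group means correlated over 15669 genes at 0.41, 0.33, 0.26 and 0.32, against -0.34 to 0.20 for other pairs. The labels do not say that replicates came from separate litters, so p-values measure the spread between these cultures. No libraries of a group agreed within sampling noise. On simulated data with 200 genes changed by a log2 fold change of 2, edgeR recovered 93.5% without and 95.5% with the block where cultures differed. It made 2 false calls without and 14 with the block there. The disease-associated genes changed by less, from -0.37 to 0.43 without the block, and recovery of changes of that size was not tested.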

Additional observations from a re-analysis of the deposited data

Results flagged for a closer look

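The Spp1 level of 12295 CPM in IgG-treated library 4 stood apart from the other 3 IgG-treated libraries (9503, 9655 and 9949 CPM), with a gap of 0.840 of the range of the group, past Dixon's critical value for 4 values. The control library of the same date, at 12589 CPM, was the highest control. It was 1 of 22 groups of 4 libraries tested in this way, where chance marks about 1 in 20.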

How the results depend on the processing

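The count of 10 disease-associated genes at an unadjusted p-value under 0.05, which was 0, was 2 with the replicate block and with its likelihood ratio test, 3 with DESeq2 and the block, 1 with library totals alone (Itgax) and 3 with the trends removed and the block. The genes meeting the criterion, 148, were 320 with the block, 528 in its likelihood ratio test, 350 with DESeq2 and the block, 284 with no filter on low counts, 332 with the trends removed and the block, and 327 with the block and without pairs 1 and 3. With library totals alone 42.3% of the calls were higher with IgG, against 68.9%. The genes at an adjusted p-value under 0.05, which were 0, were in the same order 69, 327, 233, 4, 203 and 190, and 53 with DESeq2. The 1230 genes at an unadjusted p-value under 0.05 were 2023 in the blocked likelihood ratio test and 2468 with the trends removed and the block. The 5 genes of the related lists were 8 in the blocked likelihood ratio test and with DESeq2, 2 with library totals alone (Fth1, Tmem119 and Itga9 were lost), 9 with no filter and 9 with the trends removed and the block. The median of the 10 genes, 0.02, was -0.085 with library totals alone, where that of all genes was -0.09 and the log2 fold change of Gpnmb -0.057. With the block and without pairs 1 and 3, only pairs 2 and 4 remained. The log2 fold changes were then reversed for Apoe (0.16), Trem2 (0.12), Tyrobp (0.18), Lpl (-0.16) and Gpnmb (-0.068). Apoe, Trem2, Tyrobp and Lpl had changed most in pairs 1 and 3. For these genes the reversal was therefore set by the choice of pairs, and it is no separate test. The causes were not tested.

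Leaving out replicates, 0 to 1 of the 10 genes met the criterion and 0 to 6 had an unadjusted p-value under 0.05, with most calls without replicate 4. The same range was 56 to 762 for genes meeting the criterion, 0 to 182 at an adjusted and 397 to 4126 at an unadjusted p-value under 0.05, and 0 to 14 in the related lists. The log2 fold change ranged from -0.31 to 0.041 for Trem2, -0.11 to 0.073 for Spp1 and -0.0032 to 0.11 for Gpnmb, and kept its sign for the other 7 genes. The block changed no call of the 10 genes by the criterion. With 4 pairs, changes of the size of the intervals given could not be told from 0.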

Other observations

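Over the 8 libraries the genes most like each of the 10 genes, among genes with a mean of at least 10 CPM, were taken by Pearson's correlation of log2 CPM. The correlations are descriptions over n = 8 libraries that share culture dates and scaling. Among the genes most like Apoe were Cst3 (0.997) and Esrra (0.996). For Tyrobp they were the ribosomal protein genes Rps15 (0.997) and Rps16 (0.996) and Fastk (0.996). For Clec7a they were Tomm70a (0.991), Apobec1 (0.991) and Lrrc59 (0.989), and for Lpl Rhot1 (0.996), Cab39 (0.994) and Cnot7 (0.993). For Axl they were Yipf4 (0.995), Mid1 (0.983) and Ccl2 (0.979), and for Trem2 Gm6969 (0.993), 1810037I17Rik (0.991) and Gm21981 (0.991).

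The genes that did not follow the order of IgG-treated libraries 1 and 3 had lower values. The most alike of Cst7 was Gpr84 (0.966), a receptor for medium-chain fatty acids, at 22.05 CPM in the controls and 29.5 CPM with IgG, followed by Rpl5-ps1 (0.962) and Gm10095 (0.956). Among the genes most like Itgax were Zbtb18 (0.902) and Man2a2 (0.899). Spp1 was most like Gm38182 (0.952), Tpm4 (0.950) and Parp6 (0.950), and Gpnmb most like Tmem183a (0.962), Plp2 (0.948) and Cd33 (0.939).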
